A study of Mus musculus with 30 samples.

Results

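The 39 genes described here encode proteins of the complement and coagulation systems of the blood, most of them secreted by hepatocytes. They were chosen by symbol, from complement component 3 (C3) to kininogen 1 (Kng1), and were matched by Ensembl identifier and GENCODE mouse annotation to rows of a raw count table that holds 55335 genes in all. All 39 were found, and all 39 passed the filter on low counts in every comparison. The table came from RNA-seq of 30 mouse livers and was made to learn how hepatic transcription responds to bardoxolone methyl (CDDO-Me), a synthetic triterpenoid that activates the transcription factor NRF2, when 1 sensor cysteine of KEAP1, the protein that holds NRF2 in check, is replaced. The question for these genes is whether their level changed with CDDO-Me, with either mutant genotype, or with both.

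There were 6 groups of 5 livers: wild-type, C151S and Nrf2-knockout mice, each given vehicle or CDDO-Me. C151S mice were homozygous for a Keap1 knock-in, made by CRISPR-Cas9, in which a serine replaces the sensor cysteine, and Nrf2-knockout mice lack a functional Nfe2l2, the gene of NRF2, in the whole animal. All mice were males of 7 to 10 weeks with an albino C57BL/6J background, the strain B6(Cg)-Tyr c-2J/J. They received 1 oral dose of CDDO-Me at 30 µmol/kg body weight or the carrier alone, a mixture of DMSO, Cremophor-EL and PBS, and livers were collected at 24 hours. The wild-type mice were bought as that strain and nothing in the sources used here says that they were littermates of the mutants, so that genotype and colony cannot be told apart. Each library held between 23667068 and 42073169 counts on genes.

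Complement is a cascade of plasma proteins. C1q or mannose-binding lectin recognizes a surface, attached proteases cut C4 and C2, the resulting convertases cut C3 and then C5, and C6 to C9 assemble into a pore. Coagulation is a second cascade of proteases, many of which need vitamin K, in which factor X and factor V form the complex that makes thrombin, and thrombin turns fibrinogen into fibrin. Antithrombin, heparin cofactor II and the protein C and S pair restrain it, and plasmin, made from plasminogen, dissolves the clot. The liver is the main source of nearly all of these proteins, and several of them, fibrinogen and C3 among them, are known to increase in the acute phase response to inflammation.

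The labels were first checked against genes that should follow them. Values are counts per 1000000 counts on genes after TMM scaling (CPM), as mean ± SD with n = 5 mice. Nfe2l2 was at 66.1 ± 4.15 CPM in vehicle-treated wild-type livers and at 35.2 ± 4.54 CPM in vehicle-treated Nrf2-knockout livers, and a gene-level count does not show which part of the gene the remaining reads came from. Nqo1, a classical NRF2 target that encodes a quinone reductase, lay between 48.3 and 109 CPM in the CDDO-Me-treated wild-type livers and below 10 CPM in each of the other 25 livers. Keap1 itself was at 55.1 ± 7.07 CPM in vehicle-treated wild-type and 44.98 ± 6.11 CPM in vehicle-treated C151S livers, and the table cannot show the base change. Albumin was the most abundant hepatocyte marker in all 6 groups. The core clock gene Arntl split the livers: 11 of 30 had Arntl at a log2 CPM of 0.90 or less and the others at 2.53 or more. The low libraries were 2 vehicle-treated and 3 CDDO-Me-treated C151S livers and 3 in each Nrf2-knockout group, with no wild-type liver among them. For some results between genotypes the value with Arntl set as a term is therefore also given. Changes in the members called under that term are listed in the last section. Since every wild-type liver was in the high set, such a comparison with wild-type livers rests on the high-Arntl mutant livers. The low C151S livers were vehicle-treated mice 4 and 5 and CDDO-Me-treated mice 3, 4 and 5, which are consecutive in the sample order. The labels give no isolation date, so the Arntl split and the sample order cannot be told apart in C151S mice.

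Together the 39 genes took 4.66 ± 0.41% of the TMM-scaled, not the raw, counts on genes in vehicle-treated wild-type livers. Per kilobase of exon, the scale on which different genes can be compared, the level in that group was over 1000 CPM for 4 members: the fibrinogen gamma chain Fgg (1924 CPM per kb), the alpha chain Fga (1823), C3 (1729) and the beta chain Fgb (1400.5). Another 20 members lay between 100 and 1000 CPM per kb, headed by plasminogen (Plg, 811) and Kng1 (717), the precursor of bradykinin. The group also held prothrombin (F2, 408), antiplasmin (Serpinf2, 374), C1 inhibitor (Serping1, 354) and antithrombin (Serpinc1, 263). The rest of that range was taken by Mbl2, C9, Cfi, Serpind1, F12, C4b, C8a, Proc, Hc, C8g, C8b, F10, C1s1 and Mbl1. A further 13 lay between 10 and 100, among them F7 (53.8), F11 (41.8) and the 3 C1q chains (16.3 to 35.7), with C1ra, F5, F13b, C6, F9, Klkb1, Masp1 and Pros1 beside them. The convertase proteases C2 (5.81) and Cfb (3.59) were the lowest. The lowest count behind any member in any library was 219, for Cfb, so that counting error was small beside the spread between mice.

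**Figure D1:**
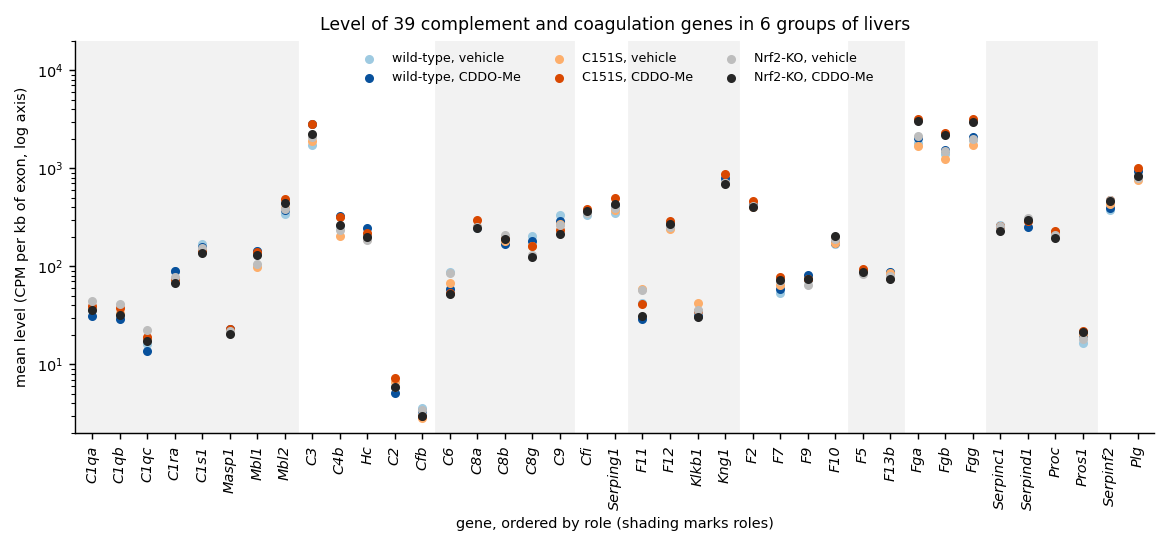
Mean level of each of the 39 genes in each of the 6 groups (CPM per kb of exon, log axis), ordered by role, with 1 point per group of 5 livers. The spread between genes runs from 3.59 CPM per kb for Cfb to 1924 for Fgg in vehicle-treated wild-type livers, while the 6 group means of a single gene differ by at most 1.99-fold, for F11.

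The ratio of the highest to the lowest of the 6 group means had a median of 1.34 over the 39 members, and 1.28 over the 5323 tested genes at a similar abundance (20 CPM or more). It was smallest for Masp1, the lectin pathway protease, and for factor V (F5), at 1.13 each, and largest for F11 (1.99), Fga (1.87), Fgb (1.86) and Fgg (1.85). The within-group SD on the log2 scale had a median of 0.21 for the members and 0.19 for those 5323 genes. Values from bulk liver are relative to the TMM-scaled counts on genes, so fewer cells of a type and less RNA per cell cannot be told apart.

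In wild-type livers CDDO-Me raised C3 and lowered C6 and F11. These were 3 of the 39 members, or 1 called higher and 2 called lower, by edgeR's quasi-likelihood test at an FDR below 0.05 with a log2 fold change of 0.5 or more in either direction. By the same rule 2.75% of the 13697 genes tested were called (1.66% higher and 1.1% lower). The median log2 fold change was 0.01 over the members and -0.01 over all genes tested.

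C3 is the protein on which the 3 activation routes of complement converge. Its level in the 5 vehicle-treated wild-type livers was 8567, 10359, 7442, 10181 and 7908 CPM, and in the 5 CDDO-Me-treated ones 15857, 15046, 13343, 13103 and 15394 CPM. Every treated liver was above every control, and the 2 lowest treated livers were still above the highest control by more than the SD of either group. The change was 0.70 on the log2 scale (SE 0.12, FDR 0.00509). It stayed past both thresholds in all 10 fits that left out 1 mouse (0.65 to 0.77), whereas in 1 fit of all 30 libraries the FDR was 0.0835.

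C6 joins the membrane attack complex after C5b. It was at 251, 335, 405, 257 and 302 CPM in the controls and at 203, 190, 234, 174 and 232 CPM after CDDO-Me. The groups did not overlap, although the lowest control and the highest treated liver were close. This was a log2 fold change of -0.59 (SE 0.13, FDR 0.0256), and it kept the call in 5 of 10 fits that left out 1 mouse (-0.66 to -0.48). The call was lost without vehicle-treated mouse 3 or 5 or CDDO-Me-treated mouse 1, 2 or 4.

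F11 encodes the zymogen of a protease that activates factor IX. The controls were at 86.7, 98.9, 101, 87.4 and 93.4 CPM and the treated livers at 58.1, 50.5, 62.6, 64.1 and 91.0 CPM. CDDO-Me-treated mouse 5 sat within the control range and the other 4 were below it. On the log2 scale the change was -0.53 (SE 0.13, FDR 0.0406), and only the fit without that mouse kept the call (log2 fold change -0.68), so that the call was lost in the other 9 fits.

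**Figure D2:**
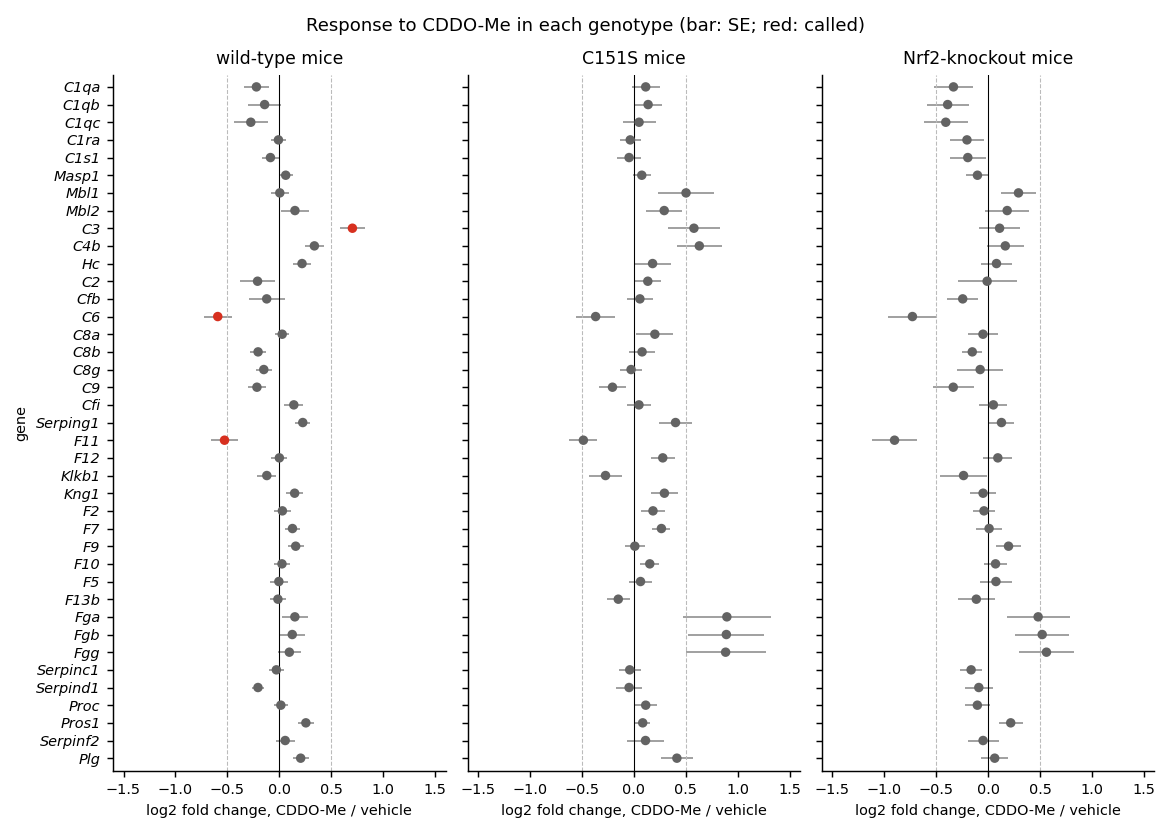
Log2 fold change of CDDO-Me over vehicle (x axis) for the 39 genes in wild-type, C151S and Nrf2-knockout livers, each from a fit of 10 libraries, with SE bars. Red points (C3, C6 and F11 in wild-type mice) passed both thresholds, the dashed lines mark 0.5 in each direction, and no point passed in either mutant.

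Around these 3, the wild-type estimates were small. Of the 5 convertase components, C3, C4b and C5 (Hc) had positive estimates and C2 and Cfb negative ones. C4b was at 1455 ± 135 CPM in controls and 1846 ± 169 CPM after CDDO-Me, with an FDR of 0.0524 (log2 fold change 0.34, SE 0.09). Of the 5 terminal pathway genes 4 had negative estimates, C8a being the exception, and C6 alone was called. The 3 fibrinogen chains had estimates of 0.10 to 0.15 with SEs of about the same size, and none was called. C1 inhibitor, protein S (Pros1), Plg and heparin cofactor II (Serpind1) had small estimates (0.23, 0.26, 0.21 and -0.21 on the log2 scale) and FDRs between 0.0857 and 0.179. Of 5 hepatocyte markers, 4 had negative estimates in wild-type livers and 2 passed the FDR, as did 4.23% of all genes, but none was called. Their median log2 fold change was -0.22 in wild-type, -0.24 in C151S and -0.29 in Nrf2-knockout livers. The part of hepatocyte content in the C6 and F11 values was not tested.

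**Figure D3:**
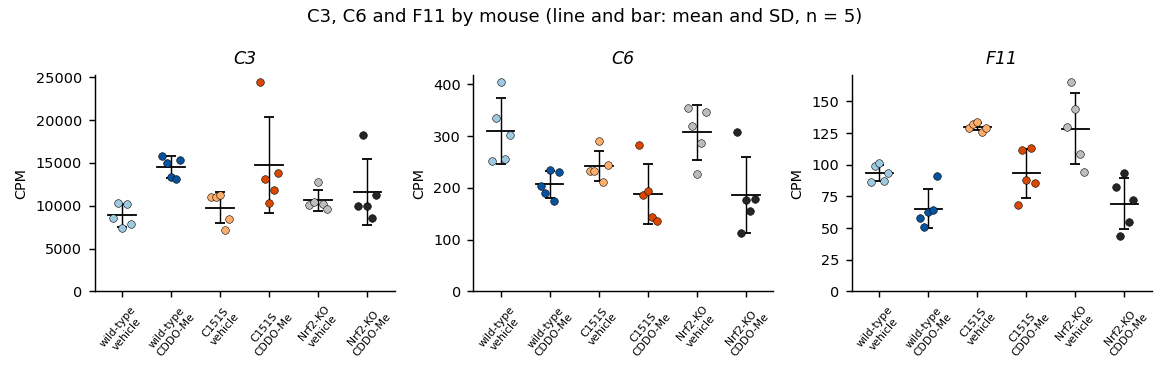
CPM of C3, C6 and F11 in each of the 30 livers (points) with mean and SD of each group of 5. C3 separated the treated from the control wild-type livers (13103 to 15857 against 7442 to 10359 CPM), and treated livers had lower mean F11 than controls in all 3 genotypes.

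In C151S livers no member was called after CDDO-Me by edgeR, against 0.092% of the 14128 genes tested. DESeq2 called 0 of the 39, and 10 members had an unadjusted edgeR p below 0.05, as did 13.7% of all genes tested. The 2 with the lowest p were F11 and F7, the protease that starts coagulation with tissue factor. F11 was at 129, 132, 134, 126 and 129 CPM in the controls and at 67.9, 111, 87.9, 114 and 85.6 CPM after treatment. The groups did not overlap, and the treated livers were far more spread than the controls. The log2 fold change was -0.48 (SE 0.13) and the FDR 0.333. F7 was at 120 ± 8.60 CPM in controls and 144 ± 12.95 CPM after CDDO-Me, with a log2 fold change of 0.27 (SE 0.09, FDR 0.35).

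C3 in the C151S livers was at 9796 ± 1861 CPM in controls and at 14718 ± 5602 CPM after CDDO-Me. The 5 treated livers lay at 24456, 13134, 10333, 11864 and 13801 CPM, so that 4 were above the highest control (11272 CPM) and mouse 1 stood far above the rest. The estimate was 0.58 (SE 0.25, FDR 0.355) on the log2 scale. C6 was at 242 ± 29.5 CPM in controls and 189 ± 58.3 CPM after CDDO-Me, with treated mouse 1 (282 CPM) inside the control range.

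In Nrf2-knockout livers no member was called after CDDO-Me by edgeR, and 0% of the 14474 genes tested were called, with 2 members and 7.85% of all genes at an unadjusted p below 0.05. DESeq2 called 1 member, F11 (FDR 0.0314), and so did 1 edgeR fit of all 30 libraries (FDR 0.0377). F11 was at 130, 165, 144, 108 and 94.5 CPM in the controls and at 82.4, 43.8, 93.5, 54.5 and 72.1 CPM after treatment. All treated livers were below all controls, the nearest pair by about 1 CPM. The log2 fold change was -0.90 (SE 0.21) with an FDR of 0.514 in the fit of these 10 libraries. With Arntl set as a term it was -0.89 (FDR 0.297). Among the controls F11 averaged 146 CPM in the 3 low-Arntl livers and 101 CPM in the other 2. C6 was at 307 ± 52.4 CPM in controls and 187 ± 73.2 CPM after CDDO-Me (log2 fold change -0.73, SE 0.23, FDR 0.547), with treated mouse 1 at 309 CPM and the other 4 below every control. C3 was at 10627 ± 1227 CPM in controls and at 11588 ± 3823 CPM after CDDO-Me, a log2 estimate of 0.11.

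F11 thus had a negative estimate in each genotype, from separate mice. It was called in wild-type livers alone by edgeR's fits of 10 libraries, and in Nrf2-knockout livers but not in wild-type ones by the fit of all 30. Whether the response differed between genotypes was tested as a difference of log2 fold changes in 1 fit of all 30 libraries. No member passed an FDR of 0.05 in any of the 3 differences, in edgeR or in DESeq2. Of the 15010 genes tested, 0.48% differed between wild-type and C151S, 0.266% between wild-type and Nrf2-knockout and 0.0133% between C151S and Nrf2-knockout. Unadjusted edgeR p-values below 0.05 were found for 1, 1 and 3 of the 39 members, and for 8.31%, 6.28% and 4.92% of all genes.

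For wild-type minus C151S, the lowest p-values were those of C8b, the C8 beta chain (difference -0.28, SE 0.13, FDR 0.58), and Fgb (-0.77, SE 0.40, FDR 0.63). The Fgb value rested on 1 liver, being -0.21 (FDR 0.914) without CDDO-Me-treated C151S mouse 1. For wild-type minus Nrf2-knockout they were those of C3 (0.59, SE 0.28, FDR 0.786) and F11 (0.37, SE 0.25, FDR 0.906). For C151S minus Nrf2-knockout they were those of Kng1 (0.34, SE 0.15) and Plg (0.35, SE 0.17), both with an FDR of 0.943. With an SE of 0.28 on the C3 difference, these data show neither that C3 responded alike in wild-type and Nrf2-knockout livers nor that it did not.

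The fibrinogen chains had the widest spread within groups of the 39 members, with a within-group SD on the log2 scale of 0.526 for Fga, 0.464 for Fgg and 0.445 for Fgb. Fibrinogen is a dimer of 3 chains whose genes, Fga, Fgb and Fgg, stand side by side on chromosome 3. The chains are made together, and their promoters are known for elements that answer interleukin-6 through STAT3 and for C/EBP sites. The promoters are shown here because the 3 genes moved together, 5′ to 3′ from 250 bases before to 10 bases after the RefSeq transcript start (GRCm38.p6; Fga chr3:83025903-83026162, plus strand; Fgb chr3:83049854-83050113, minus strand; Fgg chr3:83007474-83007733, plus strand). Capitals mark CTGGGAA, a core associated with interleukin-6 response elements.
Fga promoter: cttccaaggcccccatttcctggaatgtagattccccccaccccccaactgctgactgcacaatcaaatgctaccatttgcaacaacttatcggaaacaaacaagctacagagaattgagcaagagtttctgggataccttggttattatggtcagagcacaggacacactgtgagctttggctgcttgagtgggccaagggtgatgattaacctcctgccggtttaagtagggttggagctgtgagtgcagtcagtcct
Fgb promoter: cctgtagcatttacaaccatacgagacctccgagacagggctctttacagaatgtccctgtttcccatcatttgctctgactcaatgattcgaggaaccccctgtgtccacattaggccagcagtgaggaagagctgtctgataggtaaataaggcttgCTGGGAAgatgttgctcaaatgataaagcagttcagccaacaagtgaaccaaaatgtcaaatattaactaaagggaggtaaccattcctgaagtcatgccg
Fgg promoter: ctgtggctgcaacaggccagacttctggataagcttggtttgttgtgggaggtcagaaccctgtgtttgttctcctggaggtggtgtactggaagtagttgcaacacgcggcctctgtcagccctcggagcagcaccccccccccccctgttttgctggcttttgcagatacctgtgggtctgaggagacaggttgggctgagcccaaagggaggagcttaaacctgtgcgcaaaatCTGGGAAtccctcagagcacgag
The motif CTGGGAA, searched on both strands from 250 bases before to 50 after the start, was found once in the Fgb and once in the Fgg promoter and not in that of Fga. TTCNNNGAA, the spacing typical of STAT binding, was found in the promoters of Fga and Fgb. Promoter sequence was matched for 29 of the 39 members, in 31 windows. CTGGGAA occurred in 5 of these windows (Fgg, Fgb, C1ra, C6 and F9; 16.1%, against 11.1% of all 32851 promoter windows) and TTCNNNGAA in 6 (19.4%, against 8.3%), and the 2 motifs overlapped in F9. TGACNNNGC, the core of the antioxidant response element to which NRF2 binds, occurred in 4 (C1qb, Klkb1, Mbl1 and Serpind1; 12.9%, against 12.4%). These are matches of letters and were not tested as sites.

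Fgb was at 5336 ± 584 CPM in vehicle-treated wild-type livers, and the C151S and Nrf2-knockout controls had 4718 ± 527 and 5695 ± 779 CPM. After CDDO-Me the wild-type livers were at 6506, 7049, 5355, 5033 and 5270 CPM, the C151S livers at 19929, 7559, 5554, 4533 and 6356 CPM, and the Nrf2-knockout livers at 6460, 13904, 5743, 5161 and 9987 CPM. C151S mouse 1 and Nrf2-knockout mice 2 and 5 stood far above their controls. C151S mice 2, 3 and 5, wild-type mice 1 and 2 and Nrf2-knockout mouse 1 were also above the highest control of their genotype (5385, 6138 and 6393 CPM in C151S, wild-type and Nrf2-knockout mice), and the other 6 treated livers lay within the control range. The log2 fold change of Fgb was 0.12 (SE 0.12, FDR 0.673) in wild-type, 0.89 (SE 0.36, FDR 0.354) in C151S and 0.52 (SE 0.26, FDR 0.661) in Nrf2-knockout mice. Leaving out 1 mouse gave 0.04 to 0.18, 0.34 to 1.06 and 0.26 to 0.66 in the same order. The 3 chains moved as 1. Across the 30 livers Fgb varied 4.93-fold, while the Fga to Fgb ratio per kb stayed between 1.15 and 1.52 and the Fgg to Fgb ratio between 1.24 and 1.46.

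The 2 livers highest in fibrinogen were also high in acute phase genes, although for Saa1 a CDDO-Me-treated wild-type liver lay between them. Saa1, an acute phase apolipoprotein that lay between 28.9 and 1429 CPM in the 15 controls, was at 19469 CPM in CDDO-Me-treated C151S mouse 1 and at 6809 CPM in CDDO-Me-treated Nrf2-knockout mouse 2, the same 2 livers with the highest Fgb. Of a list of 19 acute phase genes, 18 in that C151S mouse and all 19 in that knockout mouse were above the highest control of their genotype. Nrf2-knockout mouse 5, with the third highest Fgb, was mixed, with Saa1 (197 CPM) and Hp (haptoglobin, 3385 CPM) within the range of its controls and 8 of the 19 above it, among them Itih3 (2415 CPM). C151S mouse 2 (Fgb 7559 CPM) had 445 CPM of Saa1, above its highest control (245 CPM), and 11 of the 19 above the controls. In the other 11 treated livers that number ran from 5 to 14. CDDO-Me-treated wild-type mice 1 and 2 had 8994 and 5472 CPM of Saa1, and no other liver was above 1983 CPM. Lcn2, an iron-chelating acute phase protein, was at 2589 and 2012 CPM in the first 2 of these mice and at 526 and 399 CPM in the second 2. Of the 19 genes, 8 were called higher after CDDO-Me in wild-type livers (1.66% of all genes were), among them Fgl1 (log2 fold change 1.495), Itih4 (0.98) and Hp (1.15), and none was called in either mutant. All 19 nevertheless had positive estimates in both mutants, with 14 in C151S and 10 in Nrf2-knockout livers at an unadjusted p below 0.05, beside 13.7% and 7.85% of all genes. The median log2 fold change of the list was 0.98 in wild-type, 1.39 in C151S and 0.82 in Nrf2-knockout livers. The summed level was 13904 ± 2990 CPM in wild-type controls and 31593 ± 15567 CPM after CDDO-Me, with hemopexin (Hpx) the most abundant gene in all 6 groups. It was 13107 ± 1303 and 40991 ± 48128 CPM in the C151S groups and 14649 ± 1566 and 27463 ± 21957 CPM in the Nrf2-knockout groups. No gene of the list passed the FDR for a difference in response between genotypes.

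Without the 4 livers over 5000 CPM of Saa1, C3 in wild-type mice kept its call (log2 fold change 0.64, FDR 0.0352), C6 (-0.55, FDR 0.146) and F11 (-0.38, FDR 0.179) lost it, and Fgb was at 0.34 (FDR 0.49) in C151S and 0.26 (FDR 0.783) in Nrf2-knockout livers. Beyond that, the part of the acute phase signal in the C3, C6, F11 and fibrinogen values was not tested.

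**Figure D4:**
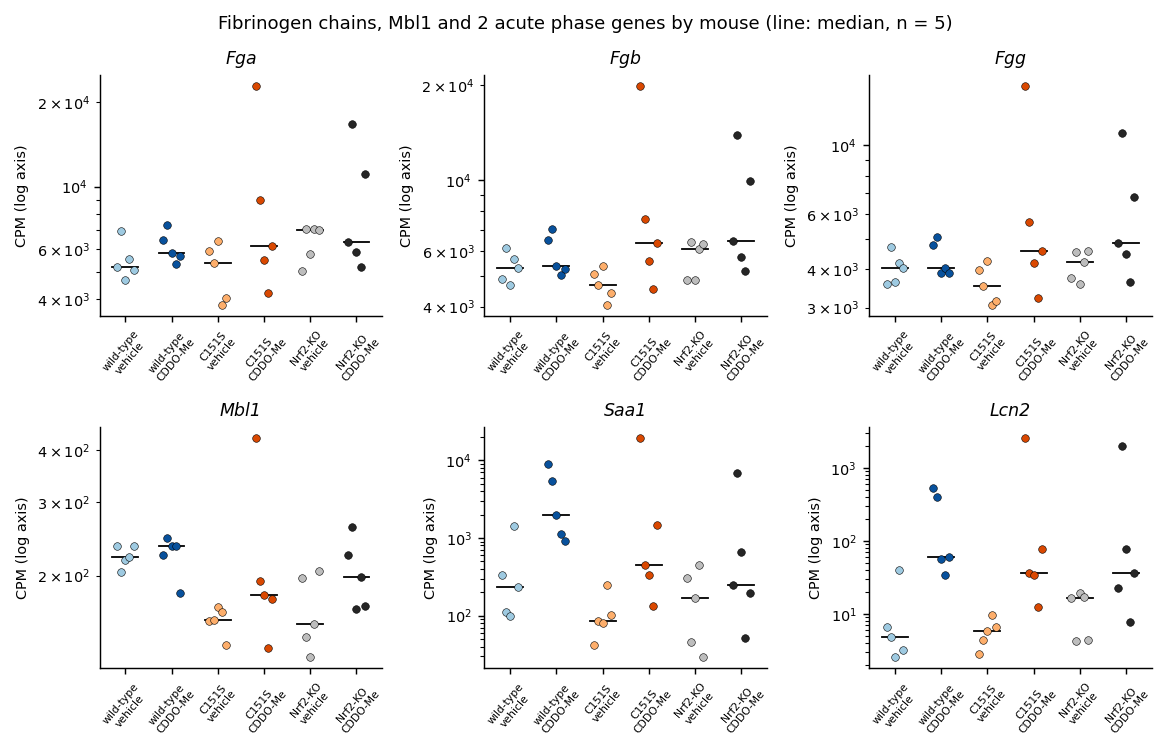
CPM (log axis) of the 3 fibrinogen chains, Mbl1 and the acute phase genes Saa1 and Lcn2 in each of the 30 livers, with the median of each group of 5 as a line. CDDO-Me-treated C151S mouse 1 is the highest point for all 6 genes (Fgb 19929 CPM, Saa1 19469 CPM, Mbl1 428 CPM).

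Between genotypes under vehicle, no member passed both thresholds in C151S against wild-type livers by edgeR or DESeq2, against 4.84% of the 13946 genes tested, and 10 members had an unadjusted edgeR p below 0.05, against 26.5% of all genes. Of the members 4 passed the FDR with a smaller change, F11, plasma prekallikrein (Klkb1) and Pros1 with positive estimates and mannose-binding lectin A (Mbl1) with a negative one, a share of the list near the 8.32% of all genes that passed the FDR. F11 was at 130 ± 2.85 CPM in C151S and 93.6 ± 6.60 CPM in wild-type controls, and every C151S liver (126 CPM or more) was above every wild-type one (101 CPM or less). Its log2 fold change of 0.49 (SE 0.07, FDR 0.00268) fell just short of the size threshold. Mbl1 was at 155, 157, 168, 164 and 136 CPM in C151S and at 235, 204, 218, 222 and 236 CPM in wild-type controls, with no overlap. Its log2 fold change was -0.50 (SE 0.08, FDR 0.00363), short of the threshold in the third decimal. With Arntl set as a term F11 was at 0.52 (FDR 0.0012) and passed both thresholds.

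In Nrf2-knockout against wild-type controls 1 member was called, C8g, against 10.4% of the 14030 genes tested. C8g encodes the gamma chain of C8, a lipocalin that joins the terminal complex. It was at 274, 212, 162, 138 and 180 CPM in the knockout and at 254, 304, 301, 315 and 331 CPM in the wild-type controls. Knockout mouse 1 lay within the wild-type range and the other 4 below it. The difference was -0.62 on the log2 scale (SE 0.15, FDR 0.0195). It was -0.89 (FDR 0.0201) with Arntl set as a term, and the call was lost without wild-type mouse 5 or knockout mouse 3. Of the other members F7 (log2 fold change 0.43, FDR 0.0231), F11 (0.48, FDR 0.0345) and Mbl1 (-0.42, FDR 0.0412) passed the FDR alone, as 16.4% of all genes passed the FDR. Among the knockout controls F7 averaged 147 CPM in the 3 low-Arntl livers and 113 CPM in the other 2, F11 averaged 146 and 101 CPM, and Mbl1 156 and 179 CPM. With Arntl set as a term the members called were C8g and C2. F7, F11 and Mbl1 thus did not pass both thresholds there, as they did not without the term. Their estimates from that fit are not given here. The C8g to C8b ratio per kb was 1.05 ± 0.09 in wild-type, 0.89 ± 0.10 in C151S and 0.61 ± 0.15 in Nrf2-knockout controls, while the C8a to C8b ratio was 1.29 ± 0.08, 1.4 ± 0.13 and 1.20 ± 0.07.

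After CDDO-Me, 1 member was called between C151S and wild-type livers, C1qc, against 5% of the 13844 genes tested. C1qc encodes 1 of the 3 chains of C1q, which in the liver is made by macrophages rather than hepatocytes. It was at 33.6, 48.7, 31.6, 34.7 and 35.5 CPM in C151S and at 21.6, 29.3, 23.8, 25.1 and 30.9 CPM in wild-type livers. The groups did not overlap, and the nearest pair was less than 1 CPM apart. The log2 fold change was 0.51 (SE 0.14, FDR 0.049), close to both thresholds, and the call was lost in 8 of 10 fits that left out 1 mouse. It was held without wild-type mouse 5 or C151S mouse 1, where C2 and F11 were also called. With Arntl set as a term C1qc was at 0.69 (FDR 0.0493) and 5 members were called, the 3 fibrinogen chains, C1qc and Serpinf2, against 2.77% of all genes. Without the low-Arntl livers none was, and C1qc was at 0.67 (FDR 0.107). All wild-type livers were high in Arntl, so these alternatives rest on CDDO-Me-treated C151S mice 1 and 2, the high-Arntl ones. Those mice were also the highest of their group in Fgb, at 19929 and 7559 CPM. F7 passed the FDR, as did 6.78% of all genes, with a smaller change (0.41, SE 0.08, FDR 0.0118): its C151S livers (127 to 157 CPM) were all above the wild-type ones (106 to 115 CPM).

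The other C1q chains had estimates of 0.38 each (C1qa, FDR 0.0877; C1qb, FDR 0.0788). The summed level of 7 Kupffer cell and macrophage markers was 215 ± 69.7 CPM in CDDO-Me-treated C151S and 206 ± 35.4 CPM in wild-type livers, and none of the 7 was at 0. Of these markers 1 was called, Marco, a scavenger receptor, and it was lower (log2 fold change -1.13). The other markers mostly leaned the opposite way, with 5 of the 7 estimates positive and a median log2 fold change of 0.51 over the list. Timd4 (0.58) and Cd68 (0.51) had an unadjusted p below 0.05. The part of macrophage number in the C1qc value was not tested. Across the 30 livers C1qa varied 2.27-fold, while the C1qb to C1qa ratio per kb lay between 0.772 and 1.05 and the C1qc to C1qa ratio between 0.383 and 0.545. The mean C1qc to C1qa ratio was 0.439 in CDDO-Me-treated wild-type and 0.482 in C151S livers.

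Between Nrf2-knockout and wild-type livers after CDDO-Me edgeR called no member, against 9.44% of the 13935 genes tested. DESeq2 called 1, C8g, and 6 members and 28.8% of all genes had an unadjusted edgeR p below 0.05. C8g was at 278, 133, 189, 175 and 146 CPM in the knockout and at 264, 259.0, 287, 267 and 286 CPM in wild-type livers, so that knockout mouse 1 was again within the wild-type range and the other 4 below it. The log2 fold change was -0.55 (SE 0.17, FDR 0.0545). With Arntl set as a term it was -0.94 (FDR 0.00748), and Fga, Fgb, Fgg and C1ra were called with it. All wild-type livers were high in Arntl, so that fit rests on CDDO-Me-treated knockout mice 2 and 5, the high-Arntl ones. Those mice were also the highest of their group in Fgb, and mouse 2 was over 5000 CPM of Saa1. F7 was at 135 ± 14.8 CPM in the knockout and 110 ± 3.54 CPM in wild-type livers, with no overlap, a log2 fold change of 0.32 (SE 0.09) and an FDR of 0.0371, and 12.6% of all genes passed the FDR. F7 averaged 142 CPM in the 3 low-Arntl knockout livers and 124 CPM in the other 2, and with Arntl set as a term its log2 fold change was 0.20 (FDR 0.26).

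**Figure D5:**
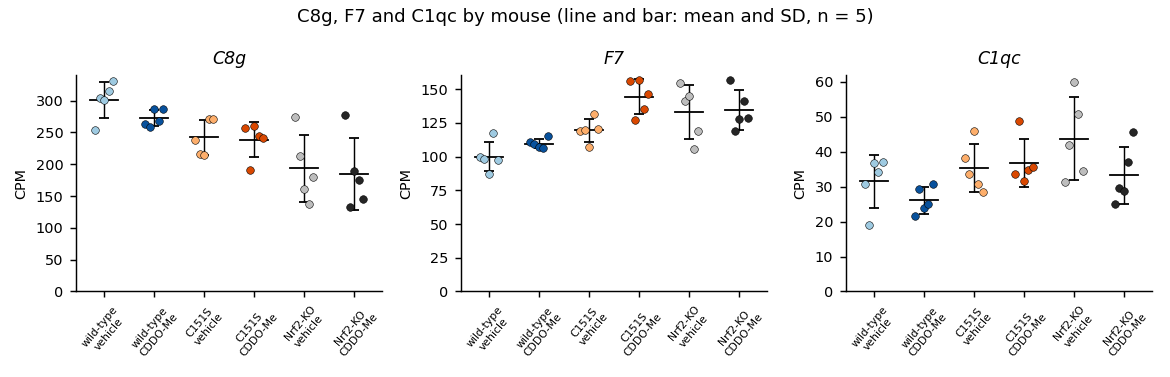
CPM of C8g, F7 and C1qc in each of the 30 livers with mean and SD of each group of 5. In both Nrf2-knockout groups 4 of 5 livers lie below every wild-type liver under the same treatment for C8g, and CDDO-Me-treated C151S livers lie above CDDO-Me-treated wild-type ones for F7 and C1qc.

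No member separated the 2 mutants by the same rule. C151S against Nrf2-knockout gave no called member under vehicle (0.349% of 14323 genes tested were called) or under CDDO-Me (0.162% of 14186), by edgeR and by DESeq2 alike, with 2 and 0 members, and 11.3% and 7.82% of all genes, at an unadjusted edgeR p below 0.05. Under vehicle the lowest p-values were those of C8b (log2 fold change -0.21, SE 0.08, FDR 0.356) and C6 (-0.34, SE 0.13, FDR 0.377). Under CDDO-Me they were those of Kng1 (0.32, SE 0.15, FDR 0.648) and F11 (0.43, SE 0.21, FDR 0.648). Of the 39 estimates 37 were positive and 2 negative under CDDO-Me, and 15 were positive and 24 negative under vehicle. The median log2 fold change under CDDO-Me was 0.135 over the members and -0.001 over all genes. Without CDDO-Me-treated C151S mouse 1 the median over the members was 0.074.

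Group means of some members lay close together. Prothrombin was between 1848 and 2116 CPM in group mean, F5 between 616 and 698 and Masp1 between 202 and 228. Antithrombin was lowest in CDDO-Me-treated Nrf2-knockout livers, at 1965 ± 126 CPM. All 5 of these livers were below every knockout control and every CDDO-Me-treated wild-type liver, but the log2 fold changes were -0.16 (FDR 0.722) and -0.15 (FDR 0.35). Factor X (F10), F9, F12 and protein C (Proc) were called in no comparison. The members' share of the TMM-scaled counts was 5.50 ± 0.29% in CDDO-Me-treated wild-type livers, 6.51 ± 2.74% in C151S and 5.75 ± 1.58% in Nrf2-knockout livers. It was 4.54 ± 0.47% and 4.95 ± 0.23% in the controls of the 2 mutants. Fga, Fgb, Fgg and C3 made up 50.9% of the members' summed CPM in wild-type controls and 60.9% in both treated mutant groups. C4b, C1ra, C1s1 and Kng1 have near-identical neighbours in the mouse genome, and since only uniquely mapped reads were counted their levels are uncertain.

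A further 59 genes of the same pathways (receptors, regulators, inhibitors and serpins) were examined as a list. Of these, 49 to 51 were tested in each comparison. None was called after CDDO-Me in any genotype by edgeR, with 11, 6 and 8 of them at an unadjusted p below 0.05 in wild-type, C151S and Nrf2-knockout livers, beside 17%, 13.7% and 7.85% of all genes. In wild-type livers Hrg, a plasma glycoprotein that binds heparin and plasminogen, and Serpina10, the inhibitor of factor Xa, passed the FDR, as did 4.23% of all genes, with log2 fold changes of 0.49 and 0.47. Thrombomodulin (Thbd, 0.86) and the collectin Colec10 (0.71) were called higher in C151S than in wild-type controls. Urokinase (Plau, 0.88), the tissue factor pathway inhibitor Tfpi (0.60), Colec11 (0.61), the C5a receptor C5ar2 (0.82) and the protein C receptor Procr (0.77) were called higher in Nrf2-knockout than in wild-type controls. These were 2 and 5 of 50 genes tested, shares near the 4.84% and 10.4% called over all genes. After CDDO-Me, Plau (1.26) was called higher and the thrombin receptor F2r (-0.63) lower in Nrf2-knockout than in wild-type livers. They were 2 of 50 tested, where 9.44% of all genes were called. Between C151S and wild-type livers after CDDO-Me 0 of 49 were called, against 5% of all genes.

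Several of these are expressed by endothelium or other non-parenchymal cells. The 5 sinusoidal endothelial markers summed to 154 ± 11.1 CPM in wild-type controls and to 200 ± 34.9 and 233 ± 46.1 CPM in those of the C151S and Nrf2-knockout mice. Pecam1, Stab2 and Lyve1 were called higher in the knockout, and the most abundant of the 5 was Stab2. The 5 stellate cell markers summed to 253 ± 39.8, 324 ± 81.7 and 350 ± 122 CPM in the same order, with Pdgfrb called higher in the knockout. The part of these cells in the values of Thbd, Colec10, Plau, Tfpi and Procr was not tested. The 4 platelet markers summed to 4.05 ± 0.18 CPM in wild-type controls and to 5.02 ± 0.57 in those lacking Nrf2. Only 2 or 3 of them passed the filter in a comparison, and none of those was called. The 3 neutrophil markers summed to 1.10 ± 0.36 CPM in wild-type controls, 2.23 ± 0.85 CPM in wild-type livers after CDDO-Me and 3.95 ± 2.37 CPM in Nrf2-knockout controls. In C151S livers they summed to 1.76 ± 1.00 CPM in controls and 4.48 ± 5.86 CPM after CDDO-Me, where 1 liver, mouse 1, reached 14.9 CPM. In the CDDO-Me-treated knockout livers the sum was 3.35 ± 2.40 CPM. S100a8 was called higher after CDDO-Me in wild-type livers (log2 fold change 1.69), and S100a8 (2.22) and S100a9 (1.78) in Nrf2-knockout against wild-type controls. The part of neutrophils in the values of the complement and coagulation genes was not tested.

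Of 16 liver transcription factors and receptors, 1 was called after CDDO-Me in wild-type livers, Nr1i3, the receptor CAR (log2 fold change 1.15), against 2.75% of all genes. Nr1i3 was lower in Nrf2-knockout than in wild-type livers under vehicle (-1.68) and under CDDO-Me (-2.55). Foxa3 was higher in CDDO-Me-treated C151S (1.53) and Nrf2-knockout (1.32) than wild-type livers. No other factor of the 16 was called between genotypes. Of 9 NRF2 targets, 8 were tested in wild-type livers and 7 in each mutant. After CDDO-Me 7 were called higher in wild-type livers, as were 1.66% of all genes. None was called in either mutant, beside 0.092% of all genes in C151S and 0% in Nrf2-knockout livers. The responses to CDDO-Me share no mice, whereas the comparisons of the 2 mutants with wild-type livers share the wild-type mice, as do the treatment and genotype comparisons.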

How the data were processed

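Total RNA from livers of 5 mice a group was made into mRNA libraries, which were sequenced. According to the study's methods, the authors checked reads with fastp, aligned them to mm10 with STAR (2.7.7 in the submitters' processing notes) and counted uniquely mapped reads per gene by strand with GENCODE annotation, and deposited raw counts for 30 libraries. The 4 summary lines of the table were left out. Between 65.9% and 80.6% of the reads in the table lay on genes. GENCODE M21 (GRCm38) gave symbols for 55154 of 55335 genes, and exon lengths.

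Counts were fitted with edgeR 4.0.16 (quasi-likelihood F-test, TMM, filterByExpr) in R 4.3.3, separately for each of 9 pairs of groups (10 libraries), with Benjamini-Hochberg adjustment over all genes tested, and in 1 fit of 30 libraries for differences between responses. A pair comparison called genes at an FDR below 0.05 with a log2 fold change of 0.5 or more in either direction, and a response difference at an FDR below 0.05. The study also used isolation date as a covariate, which is not in the labels and was not used here. DESeq2 1.42.0, upper-quartile scaling, other filters, a replicate block, an Arntl term, removal of low-Arntl libraries and leaving out each mouse were alternatives. The code was tested on simulated data. Named with statistics were the members called in a comparison, or the 2 with the lowest p where none was, and other members named are given as values chosen after these were seen. The members, lists and the split by Arntl were chosen with earlier results of these data known, and the removal of 4 livers by Saa1 after seeing the data. Nothing says that mice of a group came from separate litters. Promoters are RefSeq sequences of GRCm38.p6.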

Additional observations from a re-analysis of the deposited data

Results flagged for a closer look

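Within groups of 5, the highest or lowest mouse stood apart from the other 4 by Dixon's ratio in 21 of 258 tests on CPM of the members and the check genes, where chance flags about 1 in 20. The fibrinogen chains stood out in CDDO-Me-treated C151S mouse 1, at 22841 CPM for Fga, 19929 for Fgb and 15606 for Fgg, and so did C3 (24456 CPM), Mbl1 (428 CPM) and Serping1 (1628 CPM) in that liver, which also had the most Saa1. C3 was high in CDDO-Me-treated Nrf2-knockout mouse 2 (18208 CPM) and in vehicle-treated Nrf2-knockout mouse 3 (12765 CPM), whose Saa1 was at 6809 and 169 CPM.

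In CDDO-Me-treated C151S mouse 2, C1qc was high (48.7 CPM) and C8g low (191 CPM). In vehicle-treated C151S mouse 4, one of the low-Arntl livers, C1s1 (562 CPM) and F13b (263 CPM) were high and Cfi (650 CPM) was low. In vehicle-treated wild-type mouse 2, Cfi was high (881 CPM), F5 low (576 CPM) and Arntl high (27.7 CPM). Other mice that stood apart were vehicle-treated wild-type mouse 4 for C4b (1690 CPM), vehicle-treated Nrf2-knockout mouse 5 for Hc, which was low (896 CPM), CDDO-Me-treated wild-type mouse 3 for Cfb (13.1 CPM) and CDDO-Me-treated wild-type mouse 5 for Pros1 (90.3 CPM) and Nqo1 (109 CPM). What set these livers apart was not tested.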

How the results depend on the processing

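The counts of members called are small, and several moved with a setting. For CDDO-Me in wild-type livers the 3 calls (C3, C6, F11) became 0 in 1 fit of all 30 libraries and 1 (C3) without the 4 livers over 5000 CPM of Saa1, an alternative chosen after seeing the data. Without those livers the estimates of Fgb (-0.04) and Fgg (-0.05) also changed sign. Leaving out 1 mouse gave 1 to 3 calls. For CDDO-Me in Nrf2-knockout livers the 0 became 1 (F11) by DESeq2 and in 1 fit of all 30.

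For C151S against wild-type controls the 0 became 1 (F11) under upper-quartile scaling, a minimum of 10 counts, an Arntl term or without low-Arntl livers, 1 (Mbl1) without a filter, and 4 with no size threshold, and leaving out 1 mouse gave 0 to 2. For Nrf2-knockout against wild-type controls the 1 became 3 under upper-quartile scaling (C8g, F7, F11), 4 with no size threshold and 2 with an Arntl term (C8g, C2), and leaving out 1 mouse gave 0 to 3.

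For C151S against wild-type under CDDO-Me the 1 (C1qc) became 0 under upper-quartile scaling, either other filter, 1 fit of all 30, and without low-Arntl or high-Saa1 livers. It became 3 by DESeq2, 2 with no size threshold and 5 with an Arntl term (the fibrinogen chains, C1qc, Serpinf2), and leaving out 1 mouse gave 0 to 3. For Nrf2-knockout against wild-type under CDDO-Me the 0 became 1 with no filter, by DESeq2, with no size threshold or in 1 fit of all 30, and 5 with an Arntl term or without low-Arntl livers (C8g, the fibrinogen chains, C1ra), and leaving out 1 mouse gave 0 to 2 (C8g and C9 without knockout mouse 1, C3 without knockout mouse 2). Except where fewer mice or genes were fitted, the cause was not tested.

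Replicate numbers were not taken to pair the mice, since in no comparison did every same-numbered pair correlate above 0.1. This rule cannot exclude a partial pairing. In the Nrf2-knockout response the mean r was 0.19 for same-numbered and -0.047 for other pairs, and 3 treated mice correlated best with their own number. The same-numbered mean was -0.13 to 0.14 in the other comparisons. With a replicate block, the members called were 2 for CDDO-Me in wild-type livers (C3, C6), 1 for C151S against wild-type controls (Mbl1) and 2 for C151S against wild-type under CDDO-Me (C1qc, C2). No call was made or lost under the block in the other comparisons. The response to CDDO-Me in C151S livers, both comparisons of C151S with Nrf2-knockout livers and the 3 response differences had 0 members called under every alternative run. Each member had 219 counts or more in every library.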
